A study of Homo sapiens with 9 samples.

Results

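The comparison described here is that of WM266-4 melanoma cells given a miR-199a-3p mimic at 0.5 nM (3 arrays) with the same cells given it at 0.25 nM (3 arrays). These are 6 of the 9 arrays of the series, chosen by the titles of the samples. WM266-4 is an established human line from a melanoma metastasis, and the cells used here carried GFP. Both groups were transfected by lipofection and their total RNA was taken 48 h later. The other 3 arrays come from cells given a control microRNA at 0.5 nM. They do not enter the test and serve below as a reference level, and no control at 0.25 nM was analysed. The labels call the samples biological triplicates of 1 line and do not name separate cultures or days, so p-values measure the spread between these arrays only. Each array gives log2 intensities, and 14812 genes were tested, of which 5669 had a mean above 7 over the 6 mimic arrays. The description rests on those 5669, since differences of dim genes were mostly wider.

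MicroRNAs are short RNAs carried by an Argonaute protein, which pair through their seed with sites in messenger RNAs and lower their stability and translation. TNRC6 proteins link Argonaute to the deadenylation machinery. For a transfected mimic, the dose sets how much of the guide strand can load, and a repressed transcript would be lower at the larger dose if the response is graded. In melanoma, miR-199a-3p is known as a regulator of APOE signalling, and in other cancers as a repressor of MET, MTOR, CD44 and YAP1.

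The sequences below show which letters select targets, with the seed, bases 2 to 8, in capitals. They come from RefSeq on GRCh38.p14. The mature miR-199a-3p is encoded at chr19:10817429-10817450 and again at chr1:172144554-172144575, both on the minus strand, in MIR199A1 and MIR199A2.
hsa-miR-199a-3p: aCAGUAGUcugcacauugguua
hsa-miR-199a-5p: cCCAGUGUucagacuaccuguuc
hsa-miR-3129-5p: gCAGUAGUguagagauugguuu
The 5p strand comes from the same hairpins and has another seed. The miR-199b-3p strand of MIR199B has the same 22 bases as miR-199a-3p, so a mimic of one is a mimic of the other. Among 2545 mature entries, 3 names carried the seed CAGUAGU, these and miR-3129-5p, which differs after the seed. A site that pairs with the whole seed reads ACUACUG.

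The cells carried the markers of their lineage at both doses. Of 14 measured melanocytic genes, 12 had a mean above 7. TYR, tyrosinase of the pigment pathway, lay at 12.90, 12.78 and 12.72 on the 0.5 nM arrays and at 12.81, 12.79 and 12.81 on the 0.25 nM arrays. The mean level over the 12 melanocytic genes with a value on all 9 arrays ranged from 9.89 to 9.92 at 0.5 nM and from 9.81 to 9.83 at 0.25 nM. Markers of other cell types were dim: 1 of 10 keratinocyte and epithelial, 0 of 5 fibroblast, 1 of 5 immune and 1 of 4 endothelial markers had a mean above 7. Over markers with a value on all arrays, mean levels were 5.03 to 5.05 against 5.25 to 5.26 for keratinocyte markers at 0.5 nM and 0.25 nM, 4.95 to 5.14 against 4.92 to 5.26 for fibroblast, 6.78 to 6.86 against 6.79 to 6.83 for immune and 5.56 to 5.61 against 5.59 to 5.60 for endothelial markers. The keratinocyte mean covers 5 genes, and its gap lies mostly in 1 dim gene, KRT1, at 3.77, 3.76 and 3.76 against 4.85, 4.83 and 4.83. Of the 10 keratinocyte and epithelial markers 5 had a higher and 5 a lower value at 0.5 nM, with KRT10 at 0.64 and EPCAM at 0.19 among the former. Whether other cells bear on any difference was not tested. As in any bulk sample, fewer cells of a type and less RNA per cell cannot be told apart.

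Arrays of a dose share exactly equal values, which bears on every p-value below. Among genes with a mean above 7, 31.3% were equal on all 3 arrays at 0.5 nM and 24.7% at 0.25 nM, and 10.8% were equal within both doses. Between the doses, 0 rows were equal on any pair of arrays. No label records whether each group of arrays was summarised on its own. If it was, processing and treatment cannot be told apart in any difference below, between the doses or from the control. The median SD between arrays of a dose was 0.053 log2 units, against an SD over genes of 0.19 for the difference between the doses. The limma test takes its error from the former and its p-values understate the uncertainty of a dose effect, so sizes are given first. Replicate 1 also stood apart from replicates 2 and 3 at both doses. Replicates 2 and 3 were equal in 50.0% and 49.4% of genes with a mean above 7, at 0.5 nM and 0.25 nM, against 39.2% and 32.9% for replicates 1 and 2. The deviations of replicate 1 from its group correlated across genes at r = 0.70 between the doses, and those of replicate 1 at 0.5 nM with replicates 2 and 3 at 0.25 nM at -0.64 and -0.65.

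Few well-expressed genes differed by much between the doses. Only 30 of 5669 genes (0.529%) passed the limma test at an adjusted p under 0.05 with a difference of at least 1.5-fold, 14 of them higher (0.247%) and 16 lower (0.282%) at 0.5 nM. Without the shift of arrays to the same median there were 31, split as 7 higher and 24 lower. The largest difference among the 30 was 1.79-fold. By the adjusted p alone, 2674 (47.2%) passed, 1414 higher (24.9%) and 1260 lower (22.2%), or 876 and 1781 without the shift. The groups did not overlap for 3346 genes (59.0%), with 0.5 nM above for 32.4% and below for 26.6%. An exact permutation test of 3 arrays against 3 cannot give a two-sided p below 0.1. Without replicate 1 of both doses 3591 genes passed and 29 of them differed by 1.5-fold.

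Size depended on signal. At a mean level up to 4, 18.5% of genes passed with 1.5-fold, between 6 and 7 2.98%, between 8 and 9 0.35%, and above 10 0 of 650. Over all 14812 genes 929 did (6.27%; 3.61% higher and 2.67% lower), 899 of them among the 9143 with a mean of 7 or less. Over all genes 9194 passed the adjusted p alone (62.1%), 5159 higher (34.8%) and 4035 lower (27.2%), or 3976 and 5282 without the shift. Groups did not overlap for 72.2%, 40.6% higher and 31.6% lower. The SD over genes fell from 0.46 at the dim end to 0.13 above a level of 10. Above 7 it was 0.19 between the doses, beside 0.20 for 0.5 nM against control and 0.21 for 0.25 nM against control. Each pair of these 3 comparisons shares a group of arrays.

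**Figure D1:**
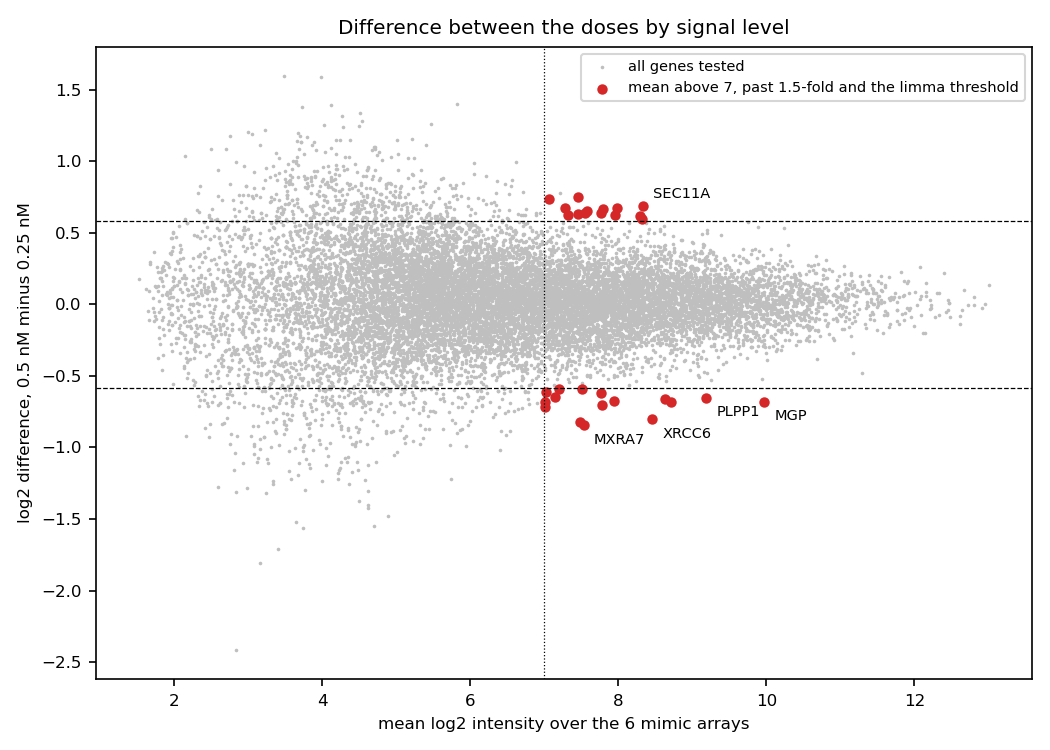
Log2 difference between the doses (0.5 nM minus 0.25 nM, vertical) against the mean log2 intensity over 6 mimic arrays (horizontal), 1 point per gene tested. Dashed lines mark 1.5-fold, the dotted line a mean of 7, and red points the 30 genes past both and the limma threshold; the cloud narrows from left to right.

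**Figure D2:**
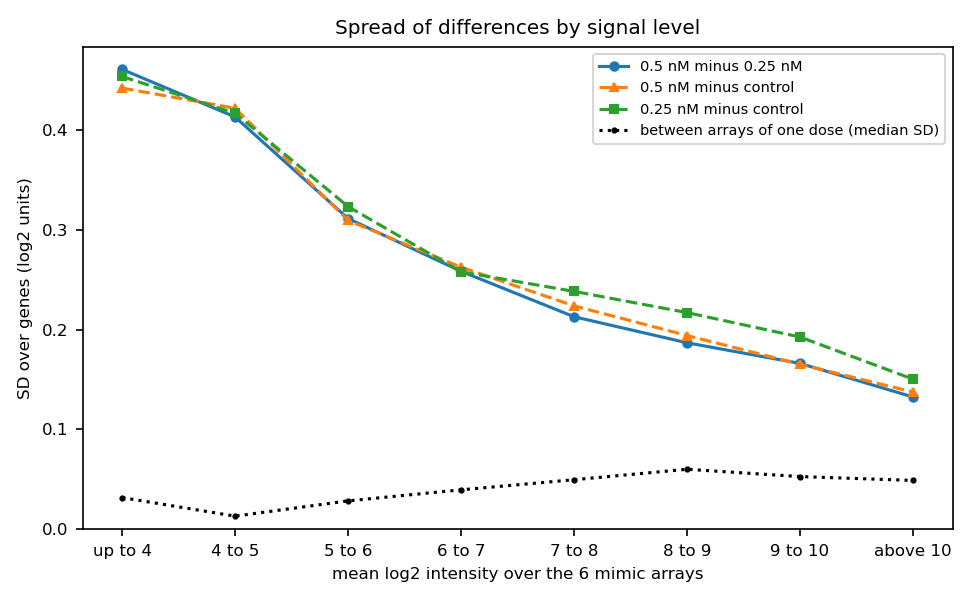
SD over genes of 3 differences between groups, in log2 units, by mean log2 intensity over the mimic arrays, with the median SD between arrays of a dose as the dotted line. The 3 upper lines run close together and fall from about 0.46 to 0.13 for the doses, well above the dotted line.

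The 12 genes furthest up at 0.5 nM are taken by role, those of the secretory pathway first. SEC11A, a catalytic subunit of signal peptidase, lay at 8.56, 8.76 and 8.70 at 0.5 nM and at 7.84, 8.06 and 8.06 at 0.25 nM. That is a difference of 0.68 ± 0.086 (SE; limma adjusted p = 0.00136), with every 0.5 nM array above every 0.25 nM array and the control at 8.35. MANF, a protein of the endoplasmic reticulum that rises when its folding capacity is strained, lay at 7.64, 7.63 and 7.63 against 6.91, 7.04 and 7.07. NENF, a secreted heme-binding neurotrophic protein, lay at 8.61, 8.60 and 8.60 against 7.96, 8.05 and 7.93, with the control at 8.27 between them. The differences of MANF and NENF were 0.63 ± 0.045 (SE; limma adjusted p = 1.44e-04) and 0.62 ± 0.031 (SE; limma adjusted p = 3.81e-05). These genes were picked for the size of their difference, and no theme was tested among them.

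Nuclear and ribosome-building genes were also in this group. TFDP1, the DP partner through which E2F factors bind DNA, lay at 8.20, 8.37 and 8.37 at 0.5 nM and at 7.54, 7.69 and 7.68 at 0.25 nM. Its difference of 0.67 ± 0.068 (SE; limma adjusted p = 5.77e-04) was 0.65, 0.68 and 0.69 within replicate numbers 1, 2 and 3. MPHOSPH10, a protein of the complex that processes small-subunit ribosomal RNA, lay at 8.11, 8.14 and 8.14 against 7.27, 7.51 and 7.60, and its control arrays were lower still, at 7.12, 7.26 and 7.26. It is thus the gene of the 24 named whose levels followed the order control, 0.25 nM, 0.5 nM. IPO13, an importin that carries proteins between nucleus and cytoplasm, differed by 0.63 ± 0.065 (SE), and its control arrays, 7.64, 7.72 and 7.72, lay close to those of 0.5 nM.

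The remaining genes higher at 0.5 nM include a pair of tetraspanins, membrane proteins that organise partners in the plane of the membrane. TSPAN3 lay at 10.05, 10.04 and 10.04 against 9.47, 9.46 and 9.46, a difference of 0.58, just under 1.5-fold, and its control arrays lay above both at 10.19. Its other, dim row on the array went the other way, at -0.81 and a mean level of 3.78. TSPAN33 lay at 8.09, 8.08 and 8.08 against 7.46, 7.44 and 7.44. Both doses of TSPAN33 and of NICOL1 tied within the group before arrays were shifted, so their spread of about 0.01 is that of the shift. NICOL1, a secreted cofactor of NELL2, differed by 0.65, and THADA, a gene disrupted in some thyroid tumours, by 0.67, with the control of THADA at 6.99, near its 0.25 nM arrays at 6.95, 6.94 and 6.94.

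MEX3D, an RNA-binding protein, was the least steady of the genes higher at 0.5 nM: its arrays lay at 8.24, 7.94 and 8.62 against 7.76, 7.61 and 7.57. The difference of 0.62 ± 0.18 (SE; limma adjusted p = 0.0324) did not pass once replicate number entered as a block (limma adjusted p = 0.0742), without the shift (limma adjusted p = 0.0643) or without replicate 1 of both doses (limma adjusted p = 0.155). Leaving out 0.5 nM replicate 1 (limma adjusted p = 0.0764) or 0.25 nM replicate 1, 2 or 3 (limma adjusted p = 0.0604, 0.0898 and 0.0930) also ended the call. A second row of MEX3D gave -0.16. LINC01023, a long noncoding RNA, differed by 0.74 ± 0.10 (SE), with 0.25 nM arrays at 6.46, 6.84 and 6.77, but by 0.06 in its other row, at a level of 5.98. A further 3 genes passed 1.5-fold with 1 value left out at 0.25 nM (n = 2). They are LY96, the co-receptor that lets TLR4 bind lipopolysaccharide, at 0.75, TSPYL1 at 0.64 and PDXDC1 at 0.60. These 3 were named after their values were seen.

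The 12 genes furthest down begin with those of DNA repair and chromosome segregation. XRCC6, the Ku70 subunit that binds broken DNA ends, lay at 8.05, 8.06 and 8.06 at 0.5 nM and at 8.78, 8.90 and 8.90 at 0.25 nM. The difference was -0.80 ± 0.035 (SE; limma adjusted p = 2.23e-05), or 1.75-fold, and the control arrays, 8.43, 8.70 and 8.70, lay between the doses. RAD54B, a motor protein of homologous recombination, lay at 7.45, 7.44 and 7.37 against 8.16, 8.14 and 8.07, a difference of -0.71 ± 0.034 (SE). ITGB3BP, also known as the kinetochore protein CENP-R, lay at 6.74, 6.73 and 6.70 against 7.34, 7.33 and 7.33. Here too no theme was tested.

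Lipid and metabolic enzymes were the next group. GALC, the lysosomal enzyme that cleaves galactosylceramide, lay at 7.06, 7.07 and 7.07 at 0.5 nM and at 7.81, 7.93 and 7.93 at 0.25 nM, a difference of -0.83 ± 0.037 (SE; limma adjusted p = 2.36e-05). Its control arrays lay near those of 0.25 nM, at 7.62, 7.89 and 7.89. PLPP1, a phosphatase of lipid phosphates at the cell surface, lay at 9.08, 8.75 and 8.75 against 9.64, 9.45 and 9.45. Here replicate 1 was the highest array of each dose, and of the control too, at 9.10 against 8.81 and 8.78, and the difference within replicate numbers was -0.56, -0.70 and -0.70. LIAS, which makes the lipoic acid cofactor of mitochondrial enzymes, differed by -0.72.

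Matrix and cell-structure genes complete the list. MXRA7, a gene associated with matrix remodelling, showed the largest difference, at 7.12, 7.11 and 7.11 against 7.96, 7.95 and 7.95. Its value of -0.84 rests on arrays that tied within both doses, so no spread was measured for it. MGP, the matrix Gla protein that holds back calcification, was the brightest of the 24, at 9.76, 9.57 and 9.57 against 10.34, 10.30 and 10.30, and its control arrays, 9.90, 9.73 and 9.70, lay closer to those of 0.5 nM. SEPTIN7, a filament-forming GTPase, differed by -0.65, IFT20, a carrier of cargo into cilia, by -0.62, MED8, a Mediator subunit, by -0.68 and ZNF280C, a zinc finger protein, by -0.66.

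Outside the 24, a further 4 genes were past 1.5-fold and lower at 0.5 nM. ALG14, which helps start N-glycan assembly, and PDRG1 differed by -0.68 each with 1 value left out at 0.25 nM (n = 2). ZBTB20, a transcriptional repressor, and CCDC80 lay just inside the threshold at -0.59, and the nearest outside it were TSPAN3 at 0.58, PHLPP2, a phosphatase of AKT, at 0.57 and BCAP29 at 0.57. Apart from CCDC80 these too were named after their values were seen. Past 1.5-fold but not past the adjusted p were MIR3175 at 0.78 (limma adjusted p = 0.0614) and UPK1A at -0.65 (limma adjusted p = 0.0532). The gene table lists pseudogenes named after TFDP1 (3), MPHOSPH10 (8), NENF (3), SEPTIN7 (15), XRCC6 (5) and MXRA7 (1), and whether probes of these genes also take up such copies was not tested.

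**Figure D3:**
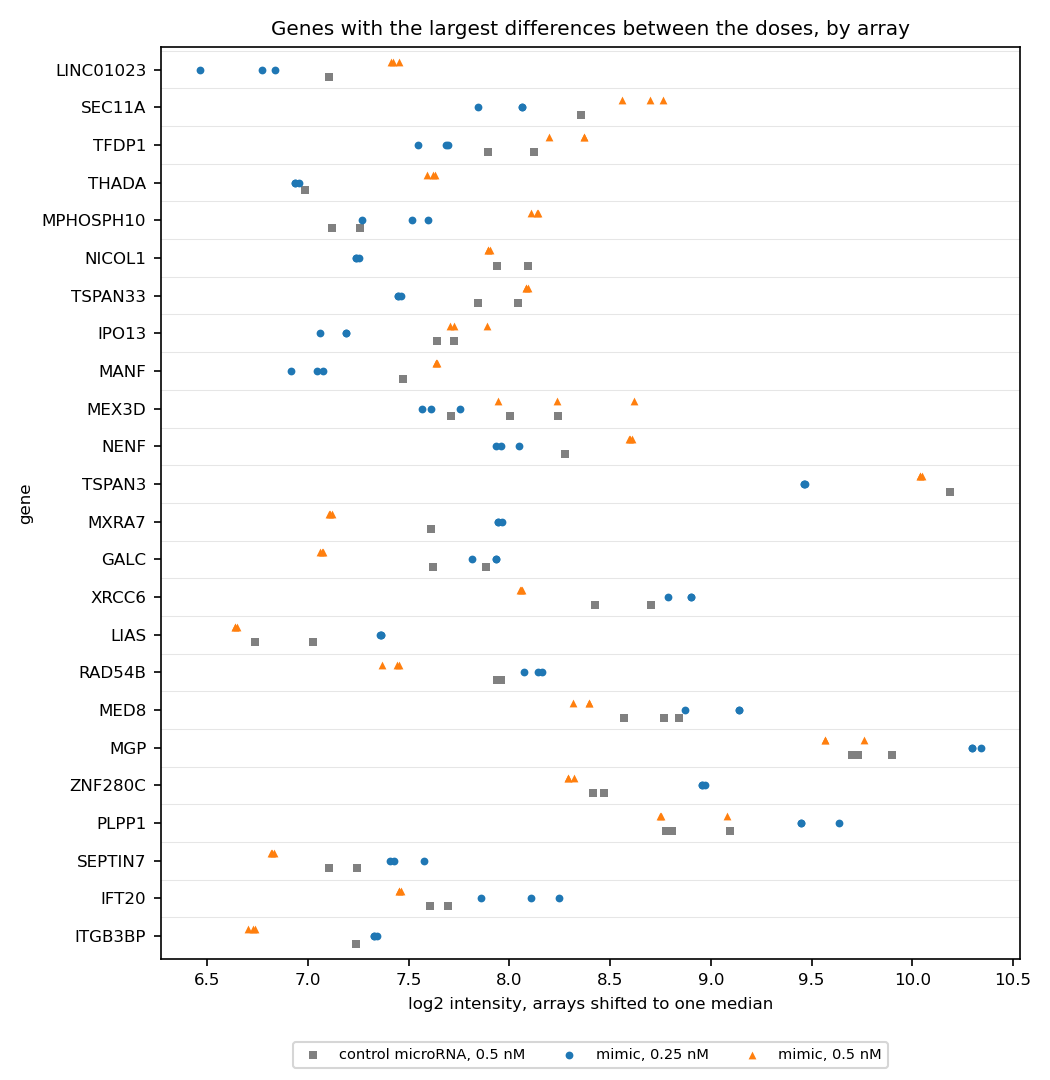
Log2 intensity on each of 9 arrays (horizontal, arrays shifted to the same median) of the 12 genes furthest above and the 12 furthest below at 0.5 nM, among genes with a mean above 7. Squares are control arrays, circles 0.25 nM and triangles 0.5 nM; the doses do not overlap for any of the 24, as the choice of genes required, and the mean of the control lies between them for 21.

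The control level lay between the doses for most of these genes. It was the middle of the 3 group means for 21 of the 24 named genes and for 26 of the 30 past 1.5-fold, while 0.25 nM was the middle for 2 of the 30. Over all 5669 genes with a mean above 7 the control was the middle for 30.9%, 0.25 nM for 30.3% and 0.5 nM for 38.8%. Choosing genes for a large difference between the doses makes a control between them more likely, so the counts for the 24 and the 30 are a description. By group means, the order control, 0.25 nM, 0.5 nM of a graded response was rare for these genes. LY96 and MPHOSPH10 were the 2 of 30. For LY96 the arrays of control and of 0.25 nM (n = 2) overlapped, so its smaller dose was not told apart from control.

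The reported targets of miR-199a-3p, a list of genes described as targets in melanoma and other cancers and drawn up with earlier results of these data known, differed by less than 1.5-fold between the doses. Of 11 with a mean above 7, 4 were higher at 0.5 nM, 1 was lower and 6 did not pass, against 24.9% higher and 22.2% lower over all genes of that level. By sign alone, with the 6 that did not pass included and no test of the list, 9 of 11 lay higher, beside 53.9% of all genes of that level. The median difference was 0.10 against 0.02 over all 5669 genes. After the shift of arrays the control was the highest of the 3 groups for 8 of 11 (39.0% of all genes), and 0.5 nM lay in the middle for 7 of 11 (38.8% of all genes). Before the shift, gene medians were 6.15 on control arrays, 6.23 to 6.25 at 0.5 nM and 6.30 to 6.31 at 0.25 nM. The shift thus raised the control against both doses, and 0.5 nM against 0.25 nM. Signs and group orders of the targets were not counted without it.

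MTOR, the growth-signalling kinase, lay at 9.42, 9.33 and 9.33 at 0.5 nM and at 8.96, 8.94 and 8.94 at 0.25 nM, a difference of 0.41 ± 0.026 (SE). Its control arrays, at 9.35, lay with the 0.5 nM arrays, so MTOR was lower at the smaller dose alone. APOE, the lipid carrier that restrains melanoma invasion, lay at 8.66, 8.64 and 8.60 against 8.22, 8.40 and 8.36, with the control at 8.54 between them. MAP3K11, a kinase upstream of JNK, lay at 7.59, 7.58 and 7.57 against 7.37, 7.36 and 7.37. Both doses of MAP3K11 were below its control at 8.02, the smaller dose further. TAOK1, a kinase of the MAP kinase and Hippo cascades, showed the same order, at 9.66, 9.74 and 9.70 against 9.51, 9.53 and 9.59 with the control at 9.87. Its difference of 0.15 did not pass without the shift, at 0.09 (limma adjusted p = 0.106).

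CD44, the hyaluronan receptor, was the target lower at 0.5 nM: 8.28, 8.18 and 8.12 against 8.50, 8.39 and 8.39, a difference of -0.23 ± 0.054 (SE; limma adjusted p = 0.0145). MET, the receptor of hepatocyte growth factor, varied with replicate number: 9.34, 8.68 and 8.41 at 0.5 nM, 8.86, 8.30 and 8.30 at 0.25 nM and 9.60, 8.89 and 8.92 in control. The doses overlap, and the difference of 0.32 ± 0.30 (SE; limma adjusted p = 0.400) did not pass, though it was above 0 within each replicate number, at 0.48, 0.37 and 0.11. AXL, a receptor kinase of the invasive state, differed by 0.07 ± 0.17 (SE) and also overlapped. YAP1, the Hippo effector, differed by 0.03 in the row used and by 0.35 in a dimmer one. FN1, fibronectin, at 0.10, passed in the blocked fit (limma adjusted p = 0.0374) and not otherwise (limma adjusted p = 0.354). HOMER1 stood at 0.10 (n = 2 at 0.25 nM) and NLK at -0.05.

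**Figure D4:**
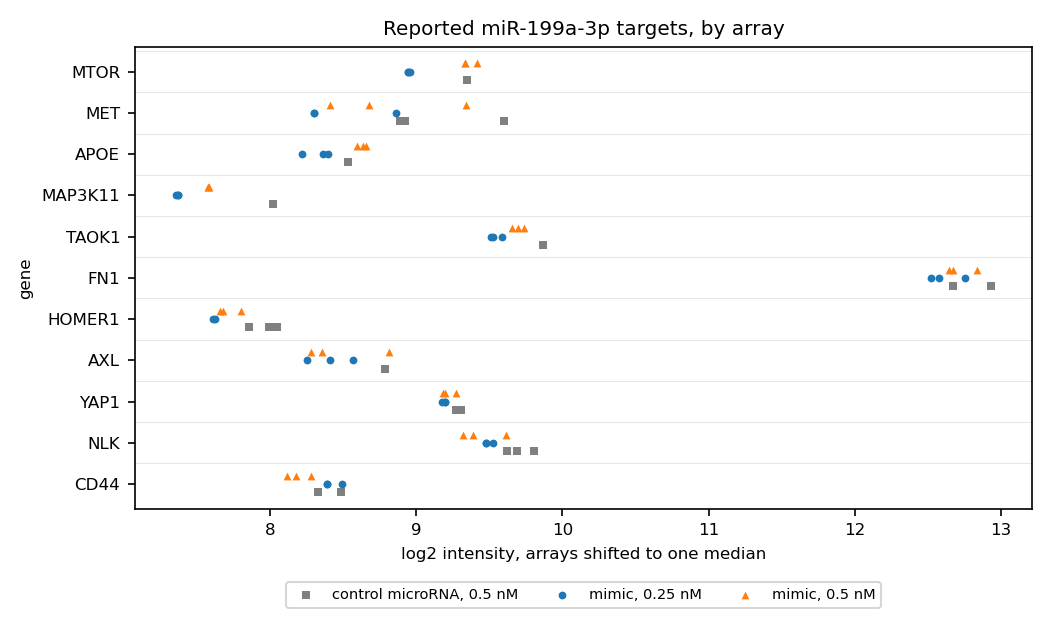
Log2 intensity on each of 9 arrays (horizontal, arrays shifted to the same median) of the 11 reported miR-199a-3p targets with a mean above 7, ordered by the difference between the doses. Squares are control arrays, circles 0.25 nM and triangles 0.5 nM; MTOR, APOE, MAP3K11 and TAOK1 lie higher at 0.5 nM and CD44 lower.

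Of 6 genes of the silencing machinery with a mean above 7, 3 passed as higher and 0 as lower, with a median of 0.12. Over all genes of that level 24.9% were higher and 22.2% lower, with a median of 0.02. A list of 6 is too short to set against these shares. TNRC6A, which bridges Argonaute to deadenylases, lay at 7.85, 7.83 and 7.82 at 0.5 nM, at 7.49, 7.47 and 7.47 at 0.25 nM and at 7.24 in control. From low to high its groups ran control, 0.25 nM, 0.5 nM. TNRC6B was higher by 0.20 and XPO5, the exporter of precursor hairpins, by 0.21 (n = 2 at 0.25 nM). DGCR8, partner of the nuclear processing enzyme, stood at 0.04, DDX6 at -0.05 (n = 2 at 0.25 nM) and TNRC6C at -0.02.

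Here and for the lists that follow, counts are read beside the 24.9% higher and 22.2% lower over all genes with a mean above 7, and without the shift 876 of those genes were higher and 1781 lower. Of 11 vesicle genes, 4 were higher and 1 was lower, with a median of 0.03, and the calls of 2 members depend on the fit. SNX2, a sorting nexin, at -0.17 passed in the blocked fit (limma adjusted p = 0.0362) and not without the block (limma adjusted p = 0.0750), and without the shift it passed at -0.24 (limma adjusted p = 0.0317). CD2AP, an adaptor between membrane and actin, lay at 8.55, 8.54 and 8.50 against 8.31, 8.17 and 8.17, both below its control at 9.21, 9.13 and 9.11. VAMP3, a SNARE of recycling endosomes, lay at 9.82, 9.51 and 9.40 against 9.16 and 9.04 (n = 2), below a control of 10.40, 10.40 and 10.38. VAMP3 is the other, with a difference of 0.48 ± 0.15 (SE; limma adjusted p = 0.0484). With short values kept as deposited it stood at 0.29 and did not pass (limma adjusted p = 0.262). It also failed without the shift (limma adjusted p = 0.0935), with quantile normalization (limma adjusted p = 0.0566) or without 0.5 nM replicate 2 (limma adjusted p = 0.0952). The robust fit, averaged rows and 0.25 nM replicate 3 left out ended the call too (limma adjusted p = 0.0549, 0.0523 and 0.0513). So did testing genes with a mean above 7 or 5 alone (limma adjusted p = 0.0614 and 0.0523). Leaving out 0.25 nM replicate 1 or 2 kept 1 value at that dose, with differences of 0.54 and 0.42. Without replicate 1 of both doses, again with 1 value at 0.25 nM, it was 0.42. STX4, a SNARE of the plasma membrane, was higher by 0.21. Of 11 lysosomal and autophagy genes 4 were higher and 1, ATG12, was lower, with a median of 0.12. CTSL, cathepsin L, was higher by 0.37 and MCOLN1, the calcium channel of lysosomes, by 0.29.

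Enzymes of inositol phosphates moved in opposite directions. ITPK1, a kinase of inositol phosphates, lay at 9.23, 9.22 and 9.22 at 0.5 nM and at 8.80, 8.79 and 8.79 at 0.25 nM, with a control above both at 9.87, 9.90 and 9.90. IPMK, which phosphorylates inositol phosphates and phosphoinositides, lay at 7.83, 7.82 and 7.82 against 8.33, 8.31 and 8.31, and PPIP5K2, which makes inositol pyrophosphates, differed by -0.47. All 3 tied within both doses before the shift. Over the 11 sphingolipid and inositol genes 2 were higher and 2 lower.

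Of 15 genes of DNA replication 3 were higher and 3 lower, both near the share over all genes of that level. FEN1, the flap endonuclease of Okazaki fragments, lay at 9.02, 9.31 and 9.31 against 8.77, 8.87 and 8.87 (0.37), and without the shift it did not pass, at 0.31 (limma adjusted p = 0.0553), nor without 0.5 nM replicate 2 or 3 or 0.25 nM replicate 1 (limma adjusted p = 0.0522, 0.0521 and 0.0557). MCM3, of the replicative helicase, was higher by 0.21. GINS2 and GINS1, of the same helicase assembly, were lower, at -0.39 (n = 2 at 0.25 nM) and -0.19. Of 15 mitotic genes 0 were higher and 4 lower, the latter again near the 22.2% of all genes, and the median of 0.02 was close to that of all genes. AURKB, the kinase of the chromosomal passenger complex, lay at 9.97 on all 3 arrays at 0.5 nM and at 10.31, 10.29 and 10.29 at 0.25 nM. CDC20, the activator of the anaphase-promoting complex, was lower, at -0.30 (n = 2 at 0.25 nM). MKI67, PLK1, CDK1 and TOP2A stood between 0.01 and 0.04 and did not pass, MKI67 and TOP2A with n = 2 at 0.25 nM.

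Of 12 output genes of the MAP kinase cascade 3 were higher and 4 lower. ETV5, an ETS factor induced by ERK, lay at 8.44, 8.43 and 8.42 at 0.5 nM, at 8.84, 8.79 and 8.79 at 0.25 nM and at 9.32, 9.27 and 9.16 in control, so that from high to low its groups ran control, 0.25 nM, 0.5 nM. ETV1, of the same family, was lower at 0.5 nM than at 0.25 nM, at -0.27, but above its control. DUSP4, a phosphatase of MAP kinases, was higher by 0.28 and DUSP6, another, lower, at -0.10. MYC was higher by 0.24. EGR3, an immediate early factor, lay at 7.30, 7.29 and 7.29 against 6.79, 6.78 and 6.78, a difference of 0.51, with ties within both doses. FOS, EGR1, IER2 and JUNB stood between -0.06 and 0.03 and did not pass.

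Pigment-cell genes did not share a direction. Of 12 with a mean above 7, 5 were higher and 3 lower. SOX10, the lineage factor of neural crest cells, lay at 9.87, 9.84 and 9.90 against 9.68, 9.66 and 9.64 (0.21), and S100B was higher by 0.16. MLANA, the melanocyte antigen, lay at 8.09, 8.08 and 8.08 against 8.40 and 8.44 (n = 2), a difference of -0.34. MITF, the master factor of the lineage, was lower, at -0.05. TYR stood at -0.01 ± 0.047 (SE), and PMEL at 0.26 and TYRP1 at 0.24 did not pass (limma adjusted p = 0.0960 and 0.0685). Of 6 genes of the undifferentiated state 1, FOSL1, was higher, by 0.07. TNC, the matrix protein tenascin C, at 0.22 joined it in the blocked fit (limma adjusted p = 0.0320, against 0.112 without the block).

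In a few inducible genes replicate 1 lay further from its group than the doses lay apart, or nearly so. BNIP3, a mitochondrial protein induced by low oxygen, lay at 10.93, 10.29 and 10.29 at 0.5 nM, at 10.27, 9.84 and 9.79 at 0.25 nM and at 10.36, 9.90 and 9.91 in control. Replicate 1 was the high array of every group, and the doses barely cleared each other, by 10.29 against 10.27. BNIP3 differed by 0.53 ± 0.23 (SE; limma adjusted p = 0.105), and passed in the blocked fit (limma adjusted p = 0.00797), at 0.66, 0.45 and 0.50 within replicate numbers. MCL1, which guards against apoptosis, and HMGCS1, of cholesterol synthesis, were instead low in replicate 1. MCL1 lay at 9.03, 9.52 and 9.44 against 8.70, 9.14 and 9.18. With the block MCL1 at 0.32 passed (limma adjusted p = 0.00677, against 0.211 without it), as did HMGCS1 at 0.28 (limma adjusted p = 0.0111, against 0.341). BNIP3, MCL1 and HMGCS1 also passed without replicate 1 of both doses (limma adjusted p = 0.00145, 0.0133 and 0.0396). IFIT2, an interferon-induced gene, at -0.36, passed with the block alone (limma adjusted p = 0.0494, against 0.169).

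The other lists gave small counts. Of 10 cholesterol genes 0 were higher and 3 lower, with a median of -0.05. The 3 were MSMO1 at -0.20, STARD4 at -0.16 and IDI1 at -0.10 (n = 2 at 0.25 nM). Of 3 YAP and TAZ targets 1 passed: CCDC80, a matrix protein, at -0.59, with arrays at 7.22, 7.21 and 7.18 against 7.53, 7.93 and 7.93. Of 5 interferon genes RIGI, a sensor of RNA, was higher, by 0.20 (n = 2 at 0.25 nM). With short values kept as deposited RIGI stood at 0.13 and did not pass (limma adjusted p = 0.0888). In 10 genes of the integrated stress and unfolded protein responses 0 were higher and 1, ATF4, was lower, at -0.20. Of 5 respiratory chain genes 2 were higher, among them COX7B, of complex IV, at 8.26, 8.42 and 8.38 against 7.86, 7.84 and 7.95, and 1 was lower, COX5A at -0.17. Of 9 receptor tyrosine kinases 3 were higher and 1 lower, IGF1R reaching 0.17.

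The remaining lists are too short to set against the share of all genes: heat shock (0 higher and 2 lower of 6), hypoxia and glycolysis (1 and 1 of 9), apoptosis regulators (1 and 1 of 10), matrix and adhesion (1 and 1 of 6), immediate early genes (2 and 1 of 9), cytosolic ribosome (1 and 1 of 4) and p53 targets (0 and 1 of 5). In the blocked fit HSPA1A, a heat shock chaperone, passed as higher at 0.10 (n = 2 at 0.25 nM, limma adjusted p = 0.0472). There MMP14, a membrane-bound matrix protease, at -0.07 did not pass (limma adjusted p = 0.0555, against 0.0137 without the block). Metallothioneins and stress genes had 0 of 5 past the threshold. ICAM1 was the lone NF-kB gene of that level, at -0.12, and did not pass with short values kept as deposited (limma adjusted p = 0.0516). KRT18, an epithelial keratin, passed at -0.15 and lost its call with the block (limma adjusted p = 0.0538) or without 0.5 nM replicate 1 or 2 (limma adjusted p = 0.0532 and 0.0533). CD68 passed at 0.21 and not without the shift (limma adjusted p = 0.0698), without 0.5 nM replicate 1 (limma adjusted p = 0.0504) or without 0.25 nM replicate 2 or 3 (limma adjusted p = 0.0705 and 0.0699), and KDR at 0.06 did not pass. Of the 5 measured fibroblast markers 0 had a mean above 7. The 14 histone and 16 proteasome genes listed had no named row at any level, so they were not assessed.

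**Figure D5:**
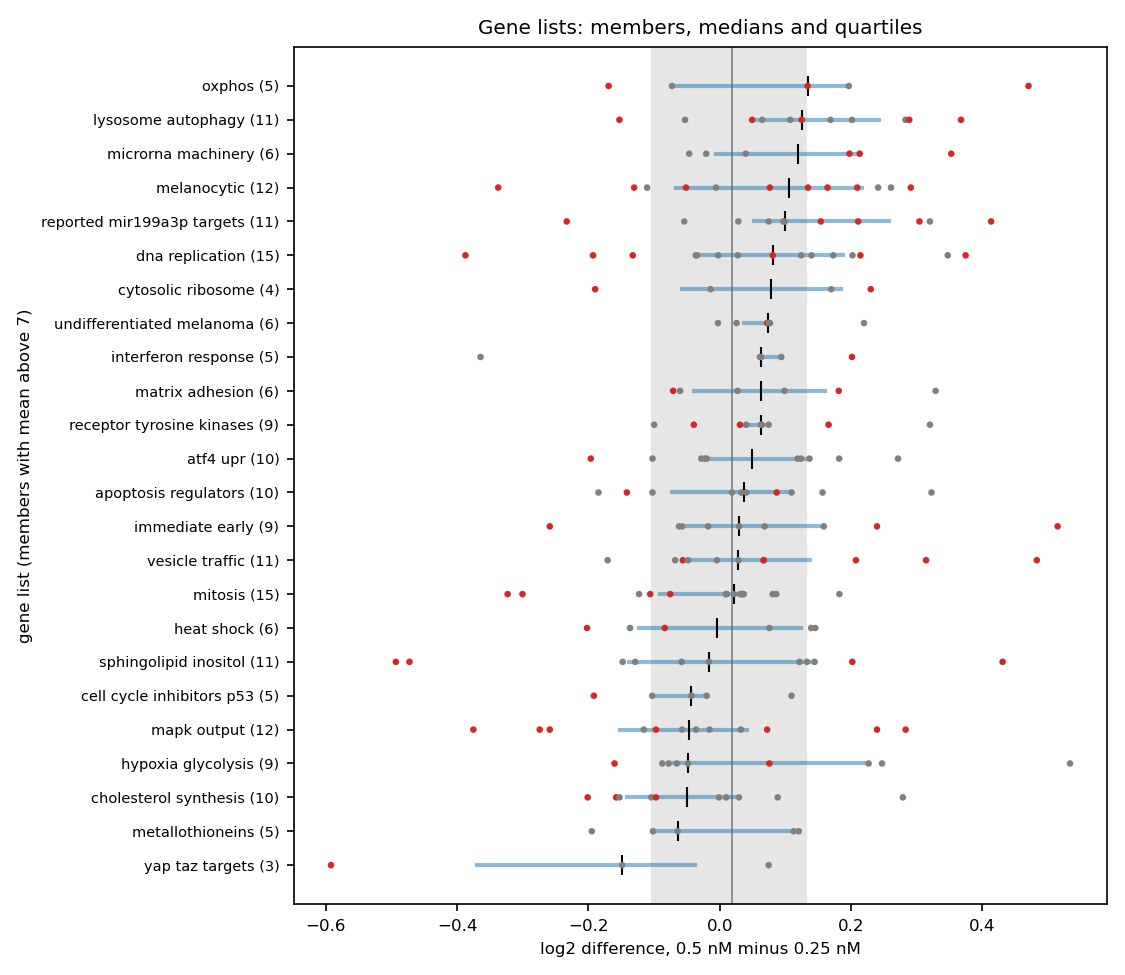
Log2 difference between the doses (0.5 nM minus 0.25 nM) of members with a mean above 7, for the 24 gene lists with at least 3 such members. Red points passed the limma test and grey points did not, black ticks are medians, blue bars quartiles, and the grey band and line the quartiles and median of all 5669 genes; most medians lie inside the band, and CCDC80 at -0.59 lies furthest out.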

How the data were processed

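The authors' deposited table holds log2 intensities of 44629 rows on 9 arrays. Per the submitters' processing notes, oligo, affy and RMA were used; their versions, their order and a build: not given in the sources used here. Rows with exactly 1 gene symbol in the platform annotation (15835, all matched to current gene IDs) were reduced to the brightest row per gene over 9 arrays, leaving 14812 genes; 28794 rows are unnamed here and 651 genes had several rows. In 0.25 nM replicate 3 zeros directly after the decimal point are lost, so its values of under 10 digits were left out (19.1% of genes). Arrays were shifted to the same median. limma 3.58.1 in R 4.3.3 compared the doses on 6 arrays with a two-sided test, adjusted by Benjamini-Hochberg over all genes, at 0.05; SEs are moderated. The script was tested on simulated data with independent noise on each array. These had neither equal values within a dose nor shared deviations of replicate 1, so they do not bear on those limits. No depth applies to arrays; 3 per group limit the precision.

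Named genes are the 12 furthest up and 12 furthest down with a mean above 7, past the limma threshold, no value left out and groups apart, all reported targets of that level, and the extreme members of 31 gene lists or those past 1.5-fold. Other list members named in the text were chosen after their values were seen. Members and lists were chosen with earlier results of these data known. The blocked fit took replicate numbers to pair the arrays, though the labels name no pairing. Deviations of same-numbered replicates correlated across 4530 genes at r = 0.70, 0.56 and 0.44. Replicate 2 at 0.5 nM correlated more with replicate 3 at 0.25 nM, at 0.62. Replicate 3 at 0.5 nM correlated more with replicate 2 at 0.25 nM, at 0.47. The values thus set replicate 1 apart and do not settle how replicates 2 and 3 pair. Alternatives covered scaling, left-out values, arrays in the fit, the replicate block, variance priors, rows per gene, level filters and each replicate left out. Sites in messenger RNAs were not analysed here.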

Additional observations from a re-analysis of the deposited data

Results flagged for a closer look

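Among 3862 rows without a gene name here and with a mean above 7, 32 passed 1.5-fold and the limma threshold between the doses (0.829%), 16 higher and 16 lower at 0.5 nM, beside 0.529% of named genes. For 20 of these 32 the higher dose lay above every control array. Choosing rows for a large difference between the doses makes this more likely, so the count is a description. These rows were not part of the comparison of genes.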

How the results depend on the processing

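Size depended on the shift of arrays. Without it the smallest difference among the 24 genes named for their difference was 0.51. Genes with a mean above 7 past 1.5-fold were then 7 higher and 24 lower, against 14 and 16. By direction and adjusted p, without regard to 1.5-fold, the 24 held under every alternative with 2 exceptions. MEX3D lost its call in 8, and TSPAN3 turned to -0.12 when the rows of a gene were averaged. In that setting KRT18 turned to 0.032. LOXL2, near 0 in the comparison (n = 2 at 0.25 nM), turned to 0.12 without 0.25 nM replicate 1 and to -0.13 without 0.25 nM replicate 2. With the replicate number as a block 9194 genes past the threshold became 8994, those with a mean above 7 went from 2674 to 2748 and those past 1.5-fold from 30 to 32. Among the 83 named genes the block changed the call of 11, 3 lost and 8 gained, and of no other named gene. Leaving out 1 array at a time gave 8398 to 9628 genes, 920 to 952 past 1.5-fold, 2282 to 3044 with a mean above 7, 27 to 37 of these past 1.5-fold, and 0 to 1 members of the gene lists past 1.5-fold. CCDC80, that member, fell out without 0.5 nM replicate 3, 0.25 nM replicate 2 or 0.25 nM replicate 3, and with short values kept as deposited the count was also 0. Testing genes with a mean above 7 or 5 alone left 2446 and 6031 past the threshold and 30 and 272 past 1.5-fold, as fewer genes were tested. A limma test against 1.5-fold called 432. Weighing genes with a mean above 6 or 8 in place of 7 gave 4191 or 1518 genes, and 103 or 8 past 1.5-fold. The control was the middle group for 1754 genes, and for 1520 without the shift. Signal limits what dim genes can show, and the equal values within doses limit every p-value.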
